A study of Mus musculus with 14 samples.

Results

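The genes of cholesterol synthesis and of its SREBP control system were followed through the depletion of Suv4-20h2 in mouse small-intestinal tumor organoids. The 26 genes form a fixed list of symbols, chosen by function and not by level, out of 55424 genes listed in the deposited count files, 17487 of them in both sets of libraries. All 26 were listed in both sets and passed the filter on low counts in both. They comprise 2 enzymes that supply the pathway, 5 enzymes of the mevalonate stretch, 3 of squalene, 8 of sterol modification, 6 genes of SREBP control and 2 of sterol transport. The organoids, called APT in the labels and described there as a cell line, carried a doxycycline-inducible short hairpin RNA. Hairpin 1 targeted exon 4 of Suv4-20h2 (3 libraries) and was set against control 1 (3 libraries), and hairpin 2 targeted exon 9 (4 libraries) and was set against control 2 (4 libraries). All 4 groups, the control hairpins included, received 0.5 µg/ml doxycycline for 4 days. The labels give each hairpin as a clone, so hairpin, clone and set cannot be told apart, and the labels state neither what the control hairpins target nor what the name APT stands for. The labels do not state whether replicates were separate cultures, and a p-value here sets a difference against a spread between libraries that could be technical.

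Cholesterol is built from acetyl-CoA by way of mevalonate, isoprenoid units, squalene and lanosterol. The enzymes are transcribed together under SREBP-2, and SREBP-1 serves mainly fatty acid genes. When membrane sterol is low, SCAP carries the SREBP precursors from the endoplasmic reticulum to the Golgi, where the proteases encoded by Mbtps1 and Mbtps2 release the active factor. When sterol is high, the INSIG proteins hold the complex back. The intestinal epithelium both makes cholesterol and takes it up from the gut.

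Suv4-20h2, gene symbol Kmt5c, methylates lysine 20 of histone H4 in compact chromatin. Levels are in CPM, the counts of a gene scaled to a common library total. Kmt5c had 53.6, 64.3 and 56.1 CPM in hairpin 1, against 72.3, 75.8 and 67.3 CPM in control 1. The levels were 114, 111, 99.3 and 106 CPM under hairpin 2 and 129, 121, 116 and 128 CPM in control 2. The groups did not overlap in either set, but neither difference passed edgeR's adjusted p threshold of 0.05 (hairpin 1 log2 fold change -0.31, adjusted p = 0.80; hairpin 2 -0.20, adjusted p = 0.098, and 0.0074 with the replicate number as a block). Total counts ran from 9272134 to 26284079. All 8 epithelial markers (Epcam, Cdh1, Krt8 and others) were detected in every library, with a summed level of 3454 to 9182 CPM. In set 2 their sum was 3454 to 3662 CPM in hairpin 2, against 4535 to 4994 CPM in control 2. By edgeR 5 of the 8 fell past the threshold, against 4.01% of all tested genes. With the block 7 fell, against 10.1% of all genes, and without the replicate 4 libraries 6 fell, against 9.02%. Summed fibroblast markers were 13.9 to 15.6 CPM in hairpin 2, against 9.23 to 12.0 CPM in control 2, with no overlap. Most of that sum was Pdgfra, a growth factor receptor of stromal cells, which rose (log2 fold change 0.55, edgeR adjusted p = 0.0094) and was 1 of the 2 fibroblast markers tested. The other, Col1a1, had a log2 fold change below 0 and did not pass, and the median of the 2 was -0.07. In set 1 the fibroblast sum was 0.281 to 2.11 CPM in hairpin 1 and 0.531 to 0.756 CPM in control 1. Summed endothelial markers were 66.1 to 115 CPM in hairpin 1, against 111 to 228 CPM in control 1, and 11.5 to 15.6 CPM in hairpin 2, against 11.1 to 16.5 CPM in control 2. For the 2 endothelial markers tested in set 1 the median did not go with the lower sum there. This median log2 fold change was 1.29, and 0 passed. A median of 2 genes does not give the direction of each, and the sum follows the more abundant marker. Immune markers lay between 5.78 and 54.9 CPM and adipocyte markers between 0.0 and 3.20 CPM over all 14 libraries. Set 1 lists all of these markers. Set 2 lists only 3 of 6 fibroblast, 3 of 6 immune, 3 of 5 endothelial and 1 of 4 adipocyte markers, so sums are not comparable between sets. The part of these markers in the levels of the 26 genes was not tested. In bulk RNA, fewer cells of a type and less RNA per cell cannot be told apart.

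Under hairpin 2, 21 of the 26 genes had a log2 fold change below 0, against 48.9% of all tested genes, and the median was -0.16, against 0.00 over all 14126 genes tested. No member passed the threshold in the fit of all 8 libraries, in which 6.05% of all genes passed. At an unadjusted p under 0.05 there were 6 members, or 23.1%, against 19.8% of all genes. The lowest values were concentrated in 1 library. Hairpin 2 replicate 4 held the lowest CPM of all 8 libraries for 25 of the 26 genes, while 24.2% of all tested genes had their lowest value there and 24.3% their highest. The single exception was Scap, which had its highest value in that library. Without the replicate 4 libraries 18 of the 26 genes (69.2%) still had a log2 fold change below 0, against 49.3% of all genes.

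**Figure D1:**
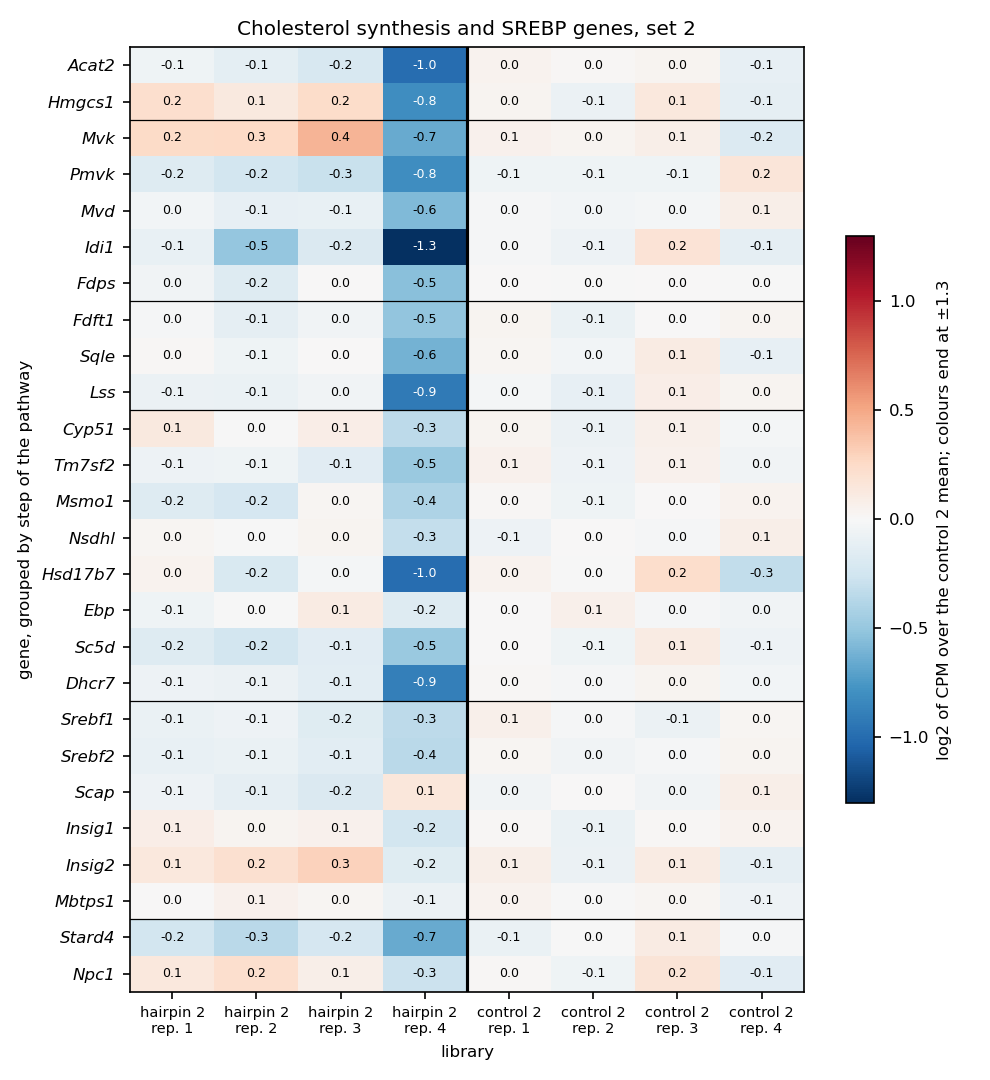
Level of each of the 26 genes in each library of set 2, as log2 of CPM over the control 2 mean, with hairpin 2 libraries on the left and control 2 libraries on the right; black lines part the steps of the pathway. Hairpin 2 replicate 4 is blue for 25 genes and pale red for Scap, with a median of -0.49, and the other 3 hairpin 2 libraries have medians of -0.05, -0.08 and -0.04. These medians were taken after a small constant was added to each level, which the plotted values lack.

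The summed level of the 18 enzymes showed the same layout. It was 3006, 2847, 3014 and 1996 CPM in hairpin 2 replicates 1 to 4, against 2956, 2820, 3056 and 2880 CPM in control 2 replicates 1 to 4. Replicates 1 to 3 of both groups and control 2 replicate 4 thus lay between 2820 and 3056 CPM, and hairpin 2 replicate 4 lay outside that range. Against the control of the same number, the median log2 ratio of the 26 genes was -0.05, -0.04 and -0.09 for replicates 1 to 3 and -0.45 for replicate 4, while the median of all tested genes stayed between -0.001 and 0.004 in all 4 pairs. Medians of ratios in this paragraph were taken after 1 CPM was added to each level. Hairpin 2 replicate 4 had 11956927 counts. Hairpin 2 replicate 3 was shallower still, with 9272134 counts, and the median of the 26 genes over the control 2 mean there was -0.04, against -0.49 in hairpin 2 replicate 4. Mitochondrially encoded transcripts took 1.63% of the counts in hairpin 2 replicate 4, against 1.70% in control 2 replicate 4, and 0.902 to 1.42% in the other 6 libraries of the set. Summed markers in that library were 3454 CPM for epithelium, 13.9 CPM for fibroblasts and 15.7 CPM for immune cells, against 3511 to 3662, 14.5 to 15.6 and 11.8 to 12.7 CPM in hairpin 2 replicates 1 to 3. The part of these differences between libraries in the levels of the 26 genes was not tested.

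Promoter sequence was read from RefSeq for the GRCm38.p6 build as the 250 bases before each annotated start, which gave 29 windows for 21 of the 26 genes. Windows are shown for Hmgcs1, the only 1 of the 21 with the full sterol element and a gene with a low value in hairpin 2 replicate 4, for Pmvk and Sc5d, which were lower in all hairpin 2 libraries than in any control 2 library, for Srebf1, and for Scap, the 1 gene with its highest value in hairpin 2 replicate 4. Capitals mark the sterol element TCACNCCAC, its shorter form CACNCCAC, which lies inside it, and the NF-Y box CCAAT, which reads ATTGG from the other strand. The windows are chr13:119690101-119690350 (plus strand) for Hmgcs1, chr3:89454291-89454540 (plus) for Pmvk, chr9:42264301-42264550 (minus) for Sc5d, chr11:60222582-60222831 (minus) for Srebf1 and chr9:110333038-110333287 (plus) for Scap. Pmvk, Srebf1 and Scap have other annotated starts, and the most upstream one is shown.
Hmgcs1: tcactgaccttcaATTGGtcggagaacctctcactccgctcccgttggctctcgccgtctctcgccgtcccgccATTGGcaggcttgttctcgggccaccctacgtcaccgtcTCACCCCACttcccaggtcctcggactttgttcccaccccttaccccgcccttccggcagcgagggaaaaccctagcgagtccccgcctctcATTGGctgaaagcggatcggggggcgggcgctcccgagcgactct
Pmvk: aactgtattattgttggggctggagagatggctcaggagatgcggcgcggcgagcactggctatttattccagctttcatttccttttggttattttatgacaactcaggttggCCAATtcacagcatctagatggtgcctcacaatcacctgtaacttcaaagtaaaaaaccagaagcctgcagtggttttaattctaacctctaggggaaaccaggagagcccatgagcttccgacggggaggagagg
Sc5d: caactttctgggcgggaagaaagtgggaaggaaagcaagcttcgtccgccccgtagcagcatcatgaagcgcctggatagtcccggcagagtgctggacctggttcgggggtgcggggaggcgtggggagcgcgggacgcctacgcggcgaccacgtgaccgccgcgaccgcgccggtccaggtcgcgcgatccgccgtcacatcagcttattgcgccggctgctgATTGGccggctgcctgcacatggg
Srebf1: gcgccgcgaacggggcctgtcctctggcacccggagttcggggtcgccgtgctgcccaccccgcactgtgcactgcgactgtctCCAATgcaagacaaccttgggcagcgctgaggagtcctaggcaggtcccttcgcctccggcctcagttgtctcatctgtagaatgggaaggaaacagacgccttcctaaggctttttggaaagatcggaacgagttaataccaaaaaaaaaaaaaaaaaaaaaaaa
Scap: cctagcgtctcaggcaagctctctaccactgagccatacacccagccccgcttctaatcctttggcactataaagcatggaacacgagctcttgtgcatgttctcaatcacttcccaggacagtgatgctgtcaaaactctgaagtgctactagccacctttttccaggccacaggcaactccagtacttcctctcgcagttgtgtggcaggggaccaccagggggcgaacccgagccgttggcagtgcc

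The Hmgcs1 window held the element TCACCCCAC on the plus strand, with its first base 137 bases before the start, and 3 NF-Y boxes on the other strand. Searched on both strands, TCACNCCAC was in the windows of 1 of 21 members (4.76%), against 1.22% of all 27025 genes in the RefSeq table. The shorter CACNCCAC was in those of 3 members (14.3%), namely Acat2, Hmgcs1 and Insig1, against 6.05% of all genes. CCAAT was in those of 18 members (85.7%), against 37.5% of all genes, and the 3 without it were Acat2, Mbtps1 and Scap. The Sp1 box GGGCGG was in those of 20 members (95.2%), against 35.4%, and the E-box CACGTG in those of 5 (23.8%), against 6.86%. Genes with several starts have more than 1 window, and these are matches of letters and not measured binding. All members passed the count filter, while the 27025 genes were not limited to such genes. The higher shares are therefore not shown to be particular to the pathway. Fdft1, Fdps, Npc1, Sqle and Stard4 had no window.

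At the entry of the pathway, Acat2 encodes the cytosolic thiolase that joins 2 acetyl-CoA molecules, and Hmgcs1 encodes the synthase that makes HMG-CoA. Hmgcs1 (ENSMUSG00000093930, chromosome 13, 119690379 to 119708260, plus strand) had 548, 515, 557 and 271 CPM in hairpin 2 replicates 1 to 4, against 486, 448, 520 and 437 CPM in control 2. Hairpin 2 replicates 1 and 3 lay above all 4 controls and replicate 4 below all of them, so the groups overlapped and the log2 fold change was 0.00 (SE 0.191, edgeR adjusted p = 1.00). Without the replicate 4 libraries it was 0.16 (adjusted p = 0.064), and 0.0032 when the remaining pairs were also blocked. Acat2 had 90.5, 85.9, 81.1 and 47.2 CPM in hairpin 2, against 96.7, 94.9, 96.1 and 87.3 CPM in control 2. Hairpin 2 replicates 2 to 4 lay below every control library, and only replicate 1 overlapped with control 2 replicate 4. The log2 fold change of Acat2 was -0.29 (SE 0.165, adjusted p = 0.37). It has a close relative in the genome, Acat3, so its count is uncertain where reads match both.

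The mevalonate stretch turns mevalonate into the isoprenoid building blocks. Mvk, mevalonate kinase, had 55.3, 55.5, 63.2 and 29.5 CPM in hairpin 2, against 48.3, 47.8, 49.0 and 41.2 CPM in control 2. Replicates 1 to 3 of hairpin 2 were above all 4 controls and replicate 4 was below all of them. Pmvk, phosphomevalonate kinase, had 66.0, 62.9, 60.7 and 42.2 CPM in hairpin 2, against 71.1, 71.3, 71.1 and 82.2 CPM in control 2. Every hairpin 2 library was below every control 2 library. Without the replicate 4 libraries both genes passed the threshold, Mvk at a log2 fold change of 0.25 (SE 0.060, edgeR adjusted p = 0.0076) and Pmvk at -0.17 (SE 0.052, adjusted p = 0.037). With all 8 libraries they had 0.13 (adjusted p = 0.77) and -0.35 (adjusted p = 0.15). Mvk lies on chromosome 5, where the median log2 fold change of the other genes was 0.12, and relative to that median it was 0.01 with all 8 libraries. Chromosome medians were not taken for the fit without the replicate 4 libraries, in which Mvk passed. Cyp51 and Insig1 on the same chromosome were at -0.14 and -0.13 relative to it. Chromosome 13, which carries Hmgcs1 and Idi1, had a median of 0.19, and relative to it Hmgcs1 was at -0.19 and Idi1 at -0.64. The medians of the other members' chromosomes lay between -0.03 and 0.01.

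The 3 later genes of this stretch did not pass in any of these fits. Mvd, the decarboxylase that makes isopentenyl diphosphate, had 138, 131, 132 and 94.7 CPM in hairpin 2, against 140, 137, 139 and 149 CPM in control 2. Idi1, the isomerase of isopentenyl diphosphate, had 6.82, 5.13, 6.38 and 2.91 CPM in hairpin 2, against 7.22, 6.97, 8.25 and 6.74 CPM in control 2. Fdps, farnesyl diphosphate synthase, had 21.9, 20.2, 22.7 and 15.5 CPM in hairpin 2, against 22.7, 22.6, 22.8 and 22.5 CPM in control 2. In each of the 3 genes replicate 4 was the lowest hairpin 2 library and the other hairpin 2 libraries reached into or near the control range. Exons of Fdps overlap 1124 bases of another annotated gene on the same strand, Gm43738, so its count is uncertain.

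The 3 squalene genes come next. Fdft1, squalene synthase, had 135, 126, 132 and 96.0 CPM in hairpin 2, against 140, 129, 137 and 140 CPM in control 2. Sqle, the epoxidase that spends oxygen on squalene, had 226, 214, 225 and 146 CPM in hairpin 2, against 227, 219, 240 and 208 CPM in control 2. Lss, which closes the ring to lanosterol, had 206, 205, 211 and 115 CPM in hairpin 2, against 214, 202, 231 and 223 CPM in control 2. In all 3 genes hairpin 2 replicates 1 to 3 overlapped with control 2 and replicate 4 did not. Hairpin 2 replicate 4 stood at 73.3, 65.6 and 55.4% of the mean of hairpin 2 replicates 1 to 3 for Fdft1, Sqle and Lss, against 104, 90.9 and 103% for control 2 replicate 4 over control 2 replicates 1 to 3. With all 8 libraries the log2 fold changes were -0.16, -0.14 and -0.24 (edgeR adjusted p = 0.41, 0.61 and 0.48), and without replicate 4 they were -0.05, -0.05 and -0.06.

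Among the 8 sterol-modifying enzymes, Sc5d was the one that separated the groups most evenly. Sc5d, the lathosterol C5 desaturase, had 93.9, 88.9, 95.0 and 75.2 CPM in hairpin 2, against 105, 101, 113 and 100 CPM in control 2. All 4 hairpin 2 libraries were below all 4 controls, and hairpin 2 lay lower in each of the 4 pairs. Its log2 fold change was -0.25 (SE 0.079, edgeR adjusted p = 0.10), and with the replicate number as a block -0.25 (SE 0.050, adjusted p = 0.0044). Without the replicate 4 libraries it was -0.21 (adjusted p = 0.013). Dhcr7, the last reductase of the Kandutsch-Russell route, had 84.9, 84.2, 80.6 and 47.9 CPM in hairpin 2, against 90.0, 87.8, 90.8 and 86.9 CPM in control 2. The groups did not overlap, but replicates 1 to 3 were close to the controls, and Dhcr7 did not pass (log2 fold change -0.25, adjusted p = 0.40, and -0.10, adjusted p = 0.18, without replicate 4).

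Cyp51, the lanosterol demethylase, had 743, 680, 724 and 540 CPM in hairpin 2, against 696, 646, 716 and 668 CPM in control 2. Msmo1, the C4 methyl oxidase, had 226, 218, 257 and 192 CPM in hairpin 2, against 256, 243, 254 and 261 CPM in control 2. Nsdhl, the decarboxylating dehydrogenase of the same step, had 248, 243, 250 and 196 CPM in hairpin 2, against 233, 245, 241 and 257 CPM in control 2. Msmo1 overlapped with the controls through hairpin 2 replicate 3, and its log2 fold change of -0.18 passed the threshold with the block (adjusted p = 0.047 by edgeR) and not without it (adjusted p = 0.24). Hsd17b7, the ketoreductase that completes C4 demethylation, had 36.7, 31.0, 34.8 and 17.9 CPM in hairpin 2, against 36.7, 35.4, 41.6 and 28.4 CPM in control 2. Here control 2 replicate 4 was the lowest control, so the replicate 4 libraries were low in both groups. Control 2 replicate 4 was also the lowest control for Hmgcs1, Mvk and some other members, though not for all. Tm7sf2, a sterol C14 reductase whose exons share sequence with Vps51, had 35.9 to 48.0 CPM in hairpin 2 and 47.9 to 51.8 CPM in control 2, and Ebp, the sterol isomerase, had 30.2 to 36.6 CPM in hairpin 2 and 32.9 to 35.5 CPM in control 2. Ebp was among the genes least reduced in hairpin 2 replicate 4, which stood at 87.8% of the mean of hairpin 2 replicates 1 to 3.

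The SREBP system comprises the transcription factors and the proteins that hold, carry and cut them. Srebf2, which encodes SREBP-2, had 592, 597, 574 and 496 CPM in hairpin 2, against 645, 614, 625 and 650 CPM in control 2. The groups did not overlap, and the log2 fold change was -0.17 (SE 0.068, edgeR adjusted p = 0.21, and 0.054 with the block). Srebf1, which encodes SREBP-1, had 243, 247, 232 and 204 CPM in hairpin 2, against 270, 255, 246 and 263 CPM in control 2. The groups overlapped by 1 library each way, and the log2 fold change was -0.16 (SE 0.068, adjusted p = 0.23, and 0.050 with the block). Insig1, a target of SREBP-2 and its brake, had 330, 320, 324 and 265 CPM in hairpin 2, against 315, 294, 315 and 322 CPM in control 2. Insig2, the second INSIG gene, had 65.3, 68.8, 73.1 and 53.4 CPM in hairpin 2, against 62.6, 56.3, 64.3 and 55.0 CPM in control 2. For both INSIG genes hairpin 2 replicates 1 to 3 were above the control of the same number and replicate 4 was below all controls. Scap, the escort of SREBP, had 65.9, 63.4, 60.4 and 76.4 CPM in hairpin 2, against 66.9, 69.2, 66.6 and 72.8 CPM in control 2. Replicates 1 to 3 were below every control and replicate 4 was above every control, the reverse of Mvk. Mbtps1, the first protease that cuts SREBP, had 208 to 228 CPM in hairpin 2 and 209 to 225 CPM in control 2. Its log2 fold change was 0.01, with an approximate 95% interval of -0.10 to 0.11. That interval uses the normal distribution and is too narrow for so few libraries.

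Of the 2 transport genes, Stard4 came closest to the threshold of all 26 genes. Stard4, a soluble carrier of cholesterol between membranes and a target of SREBP-2, had 241, 224, 246 and 182 CPM in hairpin 2, against 269, 284, 308 and 282 CPM in control 2. All hairpin 2 libraries were below all control 2 libraries. Its log2 fold change was -0.36 (SE 0.092, edgeR adjusted p = 0.051), -0.36 with the block (adjusted p = 0.0020) and -0.28 without the replicate 4 libraries (adjusted p = 0.0018). Npc1, the lysosomal cholesterol exporter, had 78.2, 82.6, 74.8 and 58.5 CPM in hairpin 2, against 71.7, 68.3, 79.7 and 64.1 CPM in control 2. The groups overlapped and the log2 fold change was 0.05 (adjusted p = 0.84).

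**Figure D2:**
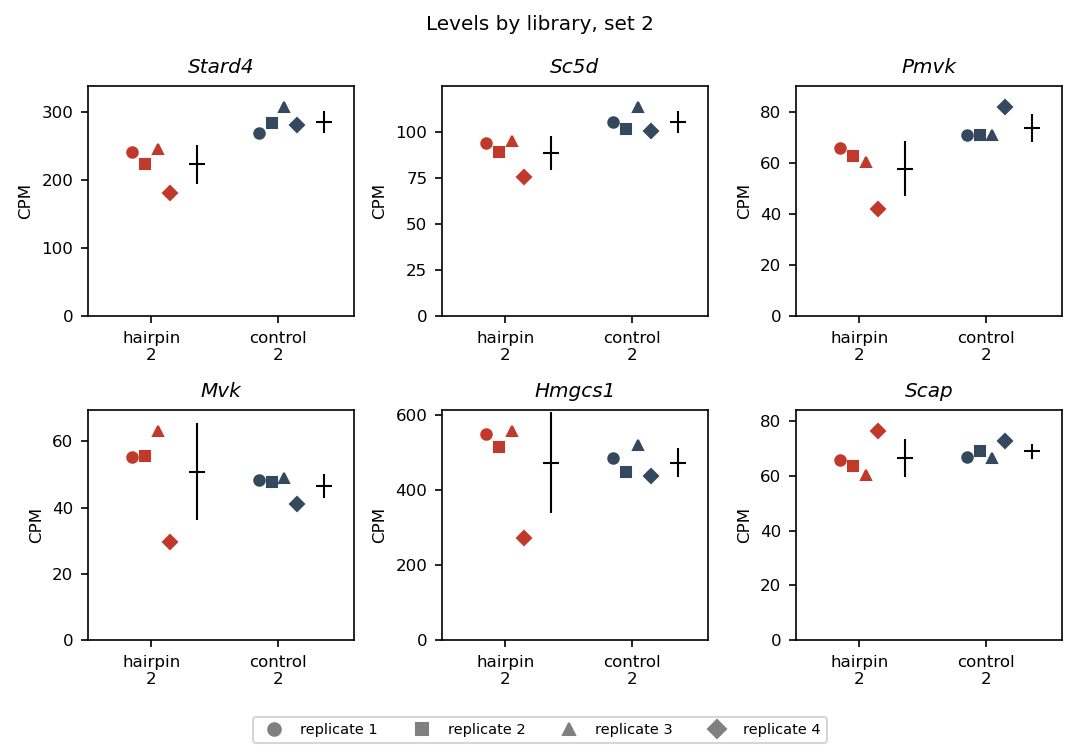
CPM of 6 genes in each library of set 2 (hairpin 2 red, left; control 2 dark, right; the symbol shape gives the replicate number), with the group mean and SD (n = 4 each) beside the points. Stard4, Sc5d and Pmvk do not overlap between groups; for Mvk and Hmgcs1 replicate 4 is the lowest library and for Scap the highest.

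With the replicate number as a block, 5 of the 26 genes fell, which is 19.2% of them, against 10.1% of all tested genes, and 0 rose, against 10.2%; in either direction 20.4% of all genes passed. They were Stard4, Sc5d, Pmvk (log2 fold change -0.35, edgeR adjusted p = 0.038), Acat2 (-0.32, adjusted p = 0.039) and Msmo1. The labels do not state a pairing by replicate number, so the block rests on an assumed one. Without the replicate 4 libraries 4 of the 26 passed, or 15.4%, against 16.9% of all genes, and the median over the 26 genes was -0.07, against -0.16 with all libraries. Stard4, Sc5d and Pmvk fell in this fit (3 genes, 9.02% of all genes) and Mvk rose (1 gene, 7.93% of all genes). With only hairpin 2 replicate 4 left out, 2 of the 26 passed, or 7.69%, against 9.84% of all genes, and these were Stard4 and Mvk. On all 8 libraries DESeq2 called 1 member lower, Stard4, against 4.53% of all genes, and voom called 3 lower, Stard4, Sc5d and Pmvk, against 9.3%. When the 3 pairs other than replicate 4 were also blocked, 7 of the 26 passed, or 26.9%, against 25.0% of all genes: Acat2, Pmvk, Sc5d and Stard4 fell (12.4% of all genes), and Hmgcs1, Insig2 and Mvk rose (12.6% of all genes). Groups did not overlap for 5 genes with hairpin 2 below control 2 (Dhcr7, Pmvk, Sc5d, Srebf2 and Stard4), or 19.2%, against 8.42% of all genes, and for 0 genes with hairpin 2 above, against 6.88%.

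**Figure D3:**
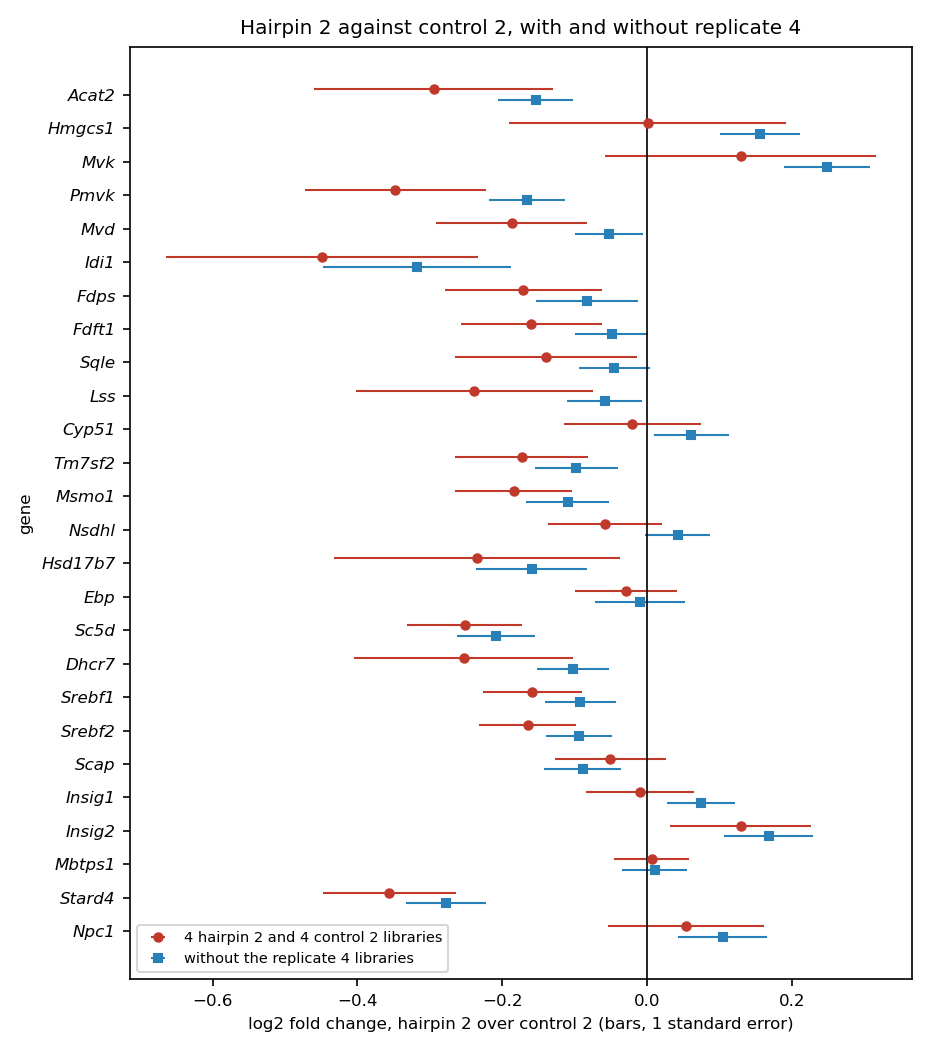
Log2 fold change of hairpin 2 over control 2 for each of the 26 genes by edgeR, with 1 standard error, from all 8 libraries (red circles) and without the replicate 4 libraries (blue squares). Without replicate 4 the points of 25 genes lie further right and that of Scap further left, and all 26 errors are smaller. Stard4, Sc5d and Pmvk are among the 18 genes that stay left of 0, and Mvk lies right of it at 0.25.

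The genes differed in how far hairpin 2 replicate 4 departed from the other hairpin 2 libraries. It stood at 47.6% of the mean of hairpin 2 replicates 1 to 3 for Idi1, 50.2% for Hmgcs1, 50.8% for Mvk, 52.2% for Hsd17b7, 55.0% for Acat2, 55.4% for Lss and 57.6% for Dhcr7. At the other end were Mbtps1 at 93.0%, Ebp at 87.8%, Srebf1 at 84.8% and Srebf2 at 84.4%, and Scap at 121%. Per kilobase of exon, the members with the highest mean levels in hairpin 2 were Cyp51 at 152, Hmgcs1 at 103, Insig1 at 100.1, Nsdhl at 82.0 and Srebf2 at 78.6 CPM, against 154, 103, 100.7, 85.5 and 88.2 CPM in control 2. On the same scale Idi1 had 1.51 CPM in hairpin 2 and 2.08 CPM in control 2, the lowest level of the list.

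Under hairpin 1 no member passed edgeR's threshold, in a fit in which 0.0% of all 13540 tested genes passed. DESeq2 and voom called 0 members as well, against 0.0565% and 0.0591% of all genes, and at an unadjusted p under 0.05 there were 4 members (15.4%), against 5.41% of all genes. They were Srebf1 and Dhcr7, which were higher in hairpin 1, and Mvd and Fdps, which were lower. Log2 fold changes were below 0 for 17 of the 26 genes, against 47.5% of all genes, with a median of -0.10, against 0.03. These 4 genes were also those whose groups did not overlap, 2 with hairpin 1 above (7.69%, against 6.5% of all genes) and 2 with hairpin 1 below (7.69%, against 6.34%). The libraries of set 1 differed more within a group than those of set 2.

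Srebf1 had 201, 222 and 238 CPM in hairpin 1, against 154, 157 and 130 CPM in control 1. The lowest hairpin 1 library was above the highest control. The log2 fold change was 0.59 (SE 0.175, edgeR adjusted p = 0.80), and 0.60 with an adjusted p of 0.034 in 1 model of all 14 libraries, in which 1.24% of all genes passed and Srebf1 alone among the 26. That model takes 1 spread per gene over both sets, so it can understate the wider spread of set 1. Dhcr7 had 216, 197 and 221 CPM in hairpin 1, against 161, 161 and 131 CPM in control 1. The log2 fold change was 0.49 (SE 0.176, adjusted p = 0.80). Mvd had 87.3, 89.5 and 108 CPM in hairpin 1, against 120, 124 and 165 CPM in control 1. Fdps had 7.76, 7.69 and 7.31 CPM in hairpin 1, against 9.25, 13.3 and 16.1 CPM in control 1. For both, the highest hairpin 1 library was below the lowest control, with log2 fold changes of -0.52 and -0.76.

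Hmgcs1 had 263, 354 and 436 CPM in hairpin 1, against 363, 464 and 802 CPM in control 1. Its high mean in control 1 came mostly from replicate 3. Control 1 replicate 3 held the highest value of the 6 libraries for 12 of the 26 genes (46.2%), against 18.3% of all genes, 11 of them enzymes and the other Insig1. Insig1 had 258, 167 and 230 CPM in hairpin 1, against 163, 208 and 441 CPM in control 1. Without control 1 replicate 3 the median over the 26 genes was 0.07, in place of -0.10. Summed over the 18 enzymes, the level was 2433, 2485 and 2959 CPM in hairpin 1, against 2308, 2883 and 3710 CPM in control 1. The groups overlapped, and the 3 control libraries spanned a wider range than the hairpin libraries did.

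**Figure D4:**
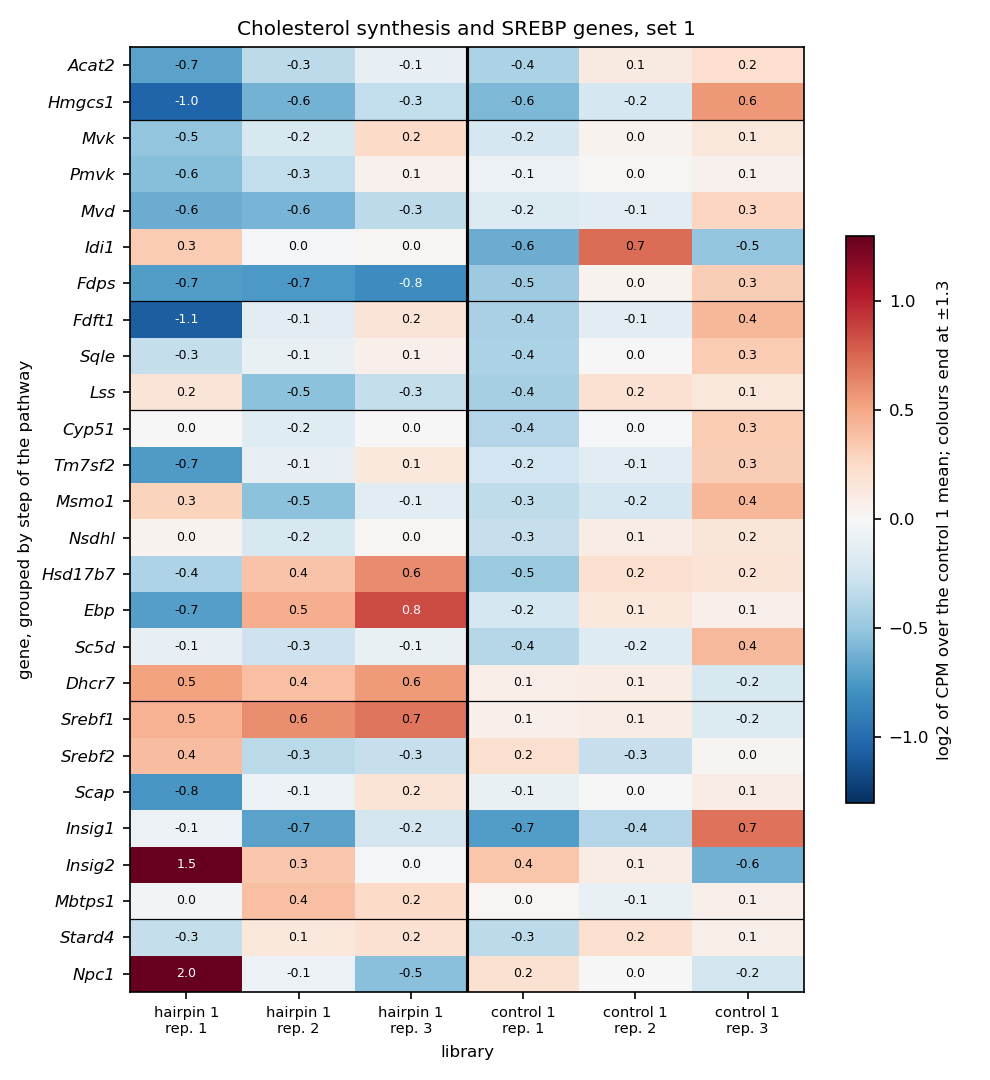
Level of each of the 26 genes in each library of set 1, as log2 of CPM over the control 1 mean, with hairpin 1 libraries on the left and control 1 libraries on the right. Srebf1 and Dhcr7 are red in all 3 hairpin 1 libraries, the enzymes are mostly red in control 1 replicate 3, and hairpin 1 replicate 1 has the extreme values of Npc1 and Insig2, which lie beyond the colour scale.

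Hairpin 1 replicate 1 stood apart from the other hairpin 1 libraries in both directions. Npc1 had 48.3, 11.6 and 8.37 CPM in hairpin 1, against 14.1, 12.3 and 10.4 CPM in control 1. Insig2 had 72.9, 33.6 and 26.1 CPM in hairpin 1, against 33.9, 28.1 and 17.0 CPM in control 1. Both genes were more than 2 times as high in replicate 1 as in any other library of the set, and their log2 fold changes were 0.90 and 0.75 with all 6 libraries and -0.29 and 0.18 without it. Ebp had 34.6, 78.6 and 102 CPM in hairpin 1, against 48.4, 62.4 and 59.4 CPM in control 1, so here replicate 1 was the lowest library and the others the highest. Srebf2 had 587, 350 and 363 CPM in hairpin 1, against 516, 363 and 458 CPM in control 1. In hairpin 1 replicates 1 to 3, mitochondrially encoded transcripts took 0.590, 2.37 and 2.02% of the counts, against 0.448 to 0.967% in control 1. Genes of ribosomal proteins took 7.23, 10.0 and 11.8% in hairpin 1, against 9.47 to 12.5% in control 1. Summed epithelial markers were 5359, 7554 and 9182 CPM in hairpin 1, against 7451 to 8151 CPM in control 1. Replicate 1 was thus the lowest hairpin 1 library in these 3 measures. Summed immune markers were highest there, at 54.9, 7.92 and 5.78 CPM in hairpin 1, against 9.68 to 40.0 CPM in control 1. The part of these values in the levels of the 26 genes was not tested. Hairpin 1 replicate 1 was lowest of the 6 libraries for 9 of the 26 genes (34.6%), against 33.7% of all genes.

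The groups of set 1 overlapped for every other member. Acat2 had 106 to 161 CPM in hairpin 1 and 130 to 201 CPM in control 1. Mvk had 66.4 to 112 CPM in hairpin 1 and 81.6 to 105 CPM in control 1. Pmvk had 57.9 to 88.3 CPM in hairpin 1 and 80.7 to 88.2 CPM in control 1. In each of these 3 genes hairpin 1 replicate 1 was the lowest of the 6 libraries. Idi1 had 45.2 to 57.6 CPM in hairpin 1 and 29.4 to 76.1 CPM in control 1, with all hairpin 1 values inside the control range. Fdft1 had 110 to 259 CPM in hairpin 1 and 173 to 312 CPM in control 1. Sqle had 170 to 220 CPM in hairpin 1 and 158 to 264 CPM in control 1. Lss had 93.7 to 152 CPM in hairpin 1 and 101 to 156 CPM in control 1. Each squalene gene thus had its highest value in a control 1 library.

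Among the sterol enzymes of set 1, Cyp51 had 469 to 525 CPM in hairpin 1 and 401 to 658 CPM in control 1. Msmo1 had 184 to 325 CPM in hairpin 1 and 211 to 359 CPM in control 1. Nsdhl had 93.8 to 112 CPM in hairpin 1 and 88.5 to 121 CPM in control 1. All 3 were highest in control 1 replicate 3. Sc5d had 65.5 to 74.0 CPM in hairpin 1 and 61.1 to 106 CPM in control 1, so the gene that did not overlap in set 2 lay within the control range in set 1. Tm7sf2 had 52.9 to 97.4 CPM in hairpin 1 and 74.5 to 110 CPM in control 1. Hsd17b7 had 19.2 to 39.0 CPM in hairpin 1 and 18.2 to 29.4 CPM in control 1. Both ranges overlapped widely. Scap had 40.7 to 78.0 CPM in hairpin 1 and 64.4 to 73.9 CPM in control 1. Mbtps1 had 112 to 150 CPM in hairpin 1 and 107 to 120 CPM in control 1. Hairpin 1 replicate 1 was the lowest library for Scap and lay within the control range for Mbtps1. Stard4, the gene nearest to the threshold under hairpin 2, had 161, 220 and 230 CPM in hairpin 1, against 158, 231 and 211 CPM in control 1. Its log2 fold change under hairpin 1 was 0.03, with an approximate 95% interval of -0.42 to 0.48 that includes the value of hairpin 2. This interval too uses the normal distribution and is too narrow for so few libraries.

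The difference between the hairpin effects was tested in the model of all 14 libraries, over 15043 genes. Because the model takes 1 spread per gene over both sets, it can understate that of set 1, and its p-values may be too small. No member passed, while 0.412% of all genes did, and 3 members (11.5%) had an unadjusted p under 0.05, against 12.0% of all genes. Srebf1 was the nearest, with a hairpin 2 effect minus hairpin 1 effect of -0.76 (SE 0.158, edgeR adjusted p = 0.064). It was higher in all hairpin 1 libraries than in any control 1 library, and each of the 4 hairpin 2 libraries was lower than the control 2 library of the same number. Without hairpin 1 replicate 1 the difference was -0.85 (adjusted p = 0.0045) and without control 1 replicate 2 it was -0.82 (adjusted p = 0.042), where 6.26% and 1.61% of all genes passed. Among the fits that left out 1 library, Ebp passed only without hairpin 1 replicate 1, at -0.74 (adjusted p = 0.024). For Dhcr7 the difference was -0.75 (SE 0.241, adjusted p = 0.22). It was the only member with hairpin 1 above and hairpin 2 below their controls and no overlap in either set, a pattern of 0.444% of the genes tested in both sets. Fdps had a difference of 0.58 (adjusted p = 0.40). Set, clone and any batch are confounded with the hairpin in these values.

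**Figure D5:**
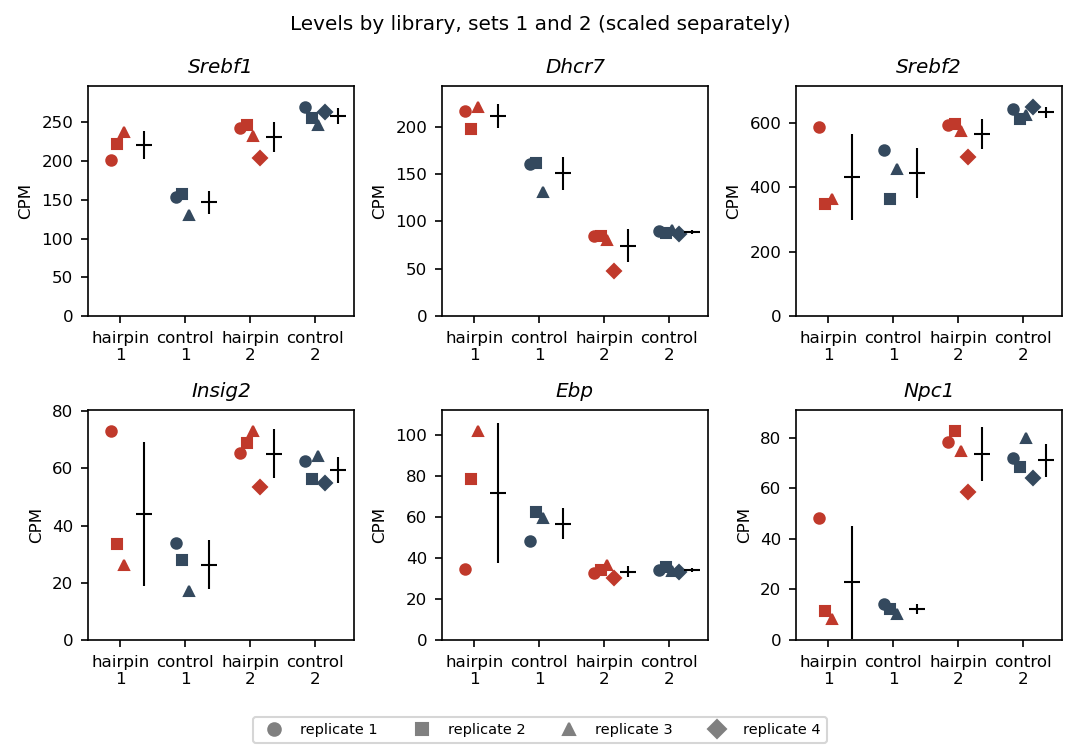
CPM of 6 genes in each library of both sets (hairpin red, each left of its own control in dark; the symbol shape gives the replicate number), with group means and SD (n = 3 each in set 1, 4 each in set 2). Srebf1 and Dhcr7 lie above control in all hairpin 1 libraries, and Insig2, Ebp and Npc1 show hairpin 1 replicate 1 apart from the other 2; the sets were scaled separately.

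Genes that border the pathway were taken from 4 lists, 70 genes in all, and described by counts. By edgeR, 0 of the 63 tested in set 2 and 0 of the 66 tested in set 1 passed the adjusted threshold, while 9 in set 2 (14.3%, against 19.8% of all genes) and 2 in set 1 (3.03%, against 5.41%) had an unadjusted p under 0.05. In set 2 DESeq2 called 2 of them, Acss2 and Ggps1 (2.99%, against 7.63% of all genes), and voom called 10 (15.9%, against 17.5%). None of these shares was above that of all genes. In set 1 both tools called 0.

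Of 17 tested genes of SREBP-1 and fatty acid synthesis, 0 passed in the fit of all 8 libraries, and with the block 5 fell, against 10.1% of all genes, and 1 rose, against 10.2%. The list's median log2 fold change was -0.06. Acss2, which makes acetyl-CoA from acetate, had 49.2 ± 9.65 CPM in hairpin 2 and 68.7 ± 5.50 CPM in control 2 (SD, n = 4 each; log2 fold change -0.48, adjusted p = 0.066, and 0.012 with the block). Elovl5, a fatty acid elongase, had a log2 fold change of -0.20 (adjusted p = 0.098, and 0.018 with the block). Hairpin 2 replicate 4 was the lowest library for 10 of these 17 genes. It was the lowest for 3 of 17 genes of SREBP processing and sterol-regulated degradation, for 2 of 13 genes of sterol export and storage, and for 1 of 16 genes of the isoprenoid branches that leave the pathway at farnesyl diphosphate, beside 25 of the 26 members and 24.2% of all genes.

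In the isoprenoid list the median log2 fold change under hairpin 2 was 0.08, and with the block 3 of 16 genes rose, against 10.2% of all genes, and 0 fell, against 10.1%. Ggps1, which makes geranylgeranyl diphosphate, had 60.1 ± 2.60 CPM in hairpin 2 and 51.6 ± 2.25 CPM in control 2 (SD, n = 4 each; log2 fold change 0.22, edgeR adjusted p = 0.059, and 0.0062 with the block). Fntb, the beta subunit of farnesyltransferase, had a log2 fold change of 0.18 (adjusted p = 0.17, and 0.027 with the block). In the processing list, with a median of 0.04, 0 of 17 genes passed in the fit of all 8 libraries, and with the block 2 rose and 2 fell, against the same 10.2% and 10.1%. Faf2, a factor in endoplasmic reticulum degradation, had a log2 fold change of 0.19 (adjusted p = 0.096), and 0.20 with the block (adjusted p = 0.0096). Aup1, a lipid droplet protein of the same route, had -0.19 (adjusted p = 0.27), and -0.20 with the block (adjusted p = 0.0080). In the export list no gene passed with the block. The 2 with the smallest p were Osbpl2, an oxysterol-binding protein, at 0.12 and Scarb1, the HDL receptor, at 0.10. Without the replicate 4 libraries Scarb1 rose past the threshold, 1 of 14 genes tested in this list, against 7.93% of all genes. It was also among the genes that voom called on all 8 libraries. These values and those of the 26 genes come from the same libraries, and no test of a list as a whole was made.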

How the data were processed

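Counts of mouse APT tumor organoid poly(A) RNA come from a stranded kit, per the labels' protocols. For each of the 14 libraries the authors deposited whole-number counts by gene, with no normalization that the values show. The submitters' processing notes name GRCm38, STAR, featureCounts, DESeq2, FastQC and bcl2fastq 2.20. No source used here gives the strand setting of the counting, so reads of genes that overlap on opposite strands cannot be told apart (Fdft1 and Ctsb, Npc1 and Rmc1, Cyp51 and Akap9, Srebf1 and Rai1, and antisense or unclassified genes at Hmgcs1, Idi1, Lss and Scap). Tm7sf2 shares exon sequence with Vps51 on the same strand. The files list 55421 genes in set 1 and 17490 in set 2, of which GENCODE M21 (GRCm38) named 55240 and 17471. Libraries of a group always differed by more than sampling noise (chi-square per gene of at least 24.0 in set 1 and 3.01 in set 2).

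Members were read out of a quasi-likelihood fit of each whole set in edgeR 4.0.16 (R 4.3.3), with TMM factors, filterByExpr and Benjamini-Hochberg adjustment over all tested genes at 0.05, after a check on simulated counts. CPM are counts over TMM-scaled library totals, scaled within each set. The difference between hairpins was a contrast in 1 model of the 4 groups, over genes listed in both sets. The members, the gene lists and the alternatives were chosen with earlier results of these data known. The alternatives were DESeq2 size factors, no filter on low counts, DESeq2 1.42.0, voom with quality weights (limma 3.58.1), the replicate block, leaving out each library, leaving out both replicate 4 or both replicate 1 libraries, 1 model of all 14 libraries, and values relative to the chromosome median over genes averaging 5 CPM or more. All 26 members are named. From each of the 4 bordering lists the text names every gene past the threshold in either set by the unblocked fit, or else the 2 with the smallest p in set 2, and 1 further list is not reported here.

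In set 2, deviations from the group means of libraries with the same replicate number correlated at 0.249, 0.153, 0.247 and 0.598, each above 0.1. The numbers were used as pairs on that limit, since the labels do not state a pairing. Libraries of different numbers correlated at -0.391 to 0.216. Among replicates 1 to 3, those of different numbers correlated at 0.108 to 0.216, also above 0.1. The limit thus does not tell pairs from other combinations there, and the group means include the replicate 4 libraries. The replicate 4 libraries correlated negatively with every library of another number. For replicates 1 to 3 the pairing is an assumption of the block fits. Hairpin 2 replicate 2 correlated more with control 2 replicates 1 and 3 (0.195 and 0.166) than with its own number. Promoter windows came from RefSeq (GRCm38.p6). The shallowest library had 9272134 counts. Python 3.11.15 with pandas 2.3.3 and matplotlib 3.10.9 made the tables and figures.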

Additional observations from a re-analysis of the deposited data

Results flagged for a closer look

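In 9 of the 52 groups of 4 libraries that the 26 genes form in set 2, 1 library lay far from the other 3 by Dixon's criterion, which chance alone flags in about 1 of 20 groups. In 7 of the 9 it was hairpin 2 replicate 4, always at the low end. These were Hmgcs1 (271 CPM, with the other 3 hairpin 2 libraries at 515 to 557 CPM), Mvd (94.7 CPM, others 131 to 138 CPM), Sqle (146 CPM, others 214 to 226 CPM), Lss (115 CPM, others 205 to 211 CPM), Nsdhl (196 CPM, others 243 to 250 CPM), Dhcr7 (47.9 CPM, others 80.6 to 84.9 CPM) and Insig1 (265 CPM, others 320 to 330 CPM). The remaining 2 were in control 2 replicate 4, at the low end for Mvk (41.2 CPM, with the other control 2 libraries at 47.8 to 49.0 CPM) and at the high end for Pmvk (82.2 CPM, others 71.1 to 71.3 CPM). The 7 genes share the same library, so the flags are not independent of each other. Hairpin 2 replicate 4 was the lowest library of set 2 for 24.2% of all tested genes and the highest for 24.3%. The criterion was not applied to all tested genes. The 9 flagged groups are therefore not shown to be particular to the 26 genes. Groups of set 1 hold 3 libraries and were not examined in this way.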

How the results depend on the processing

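Under hairpin 2, the count of all genes past the threshold was 854, and it was 1319 with DESeq2, 2466 with voom, 2880 with the replicate block, 2396 without both replicate 4 libraries, 3529 without them and with the block, 120 in the model of all 14 libraries, and 453 to 1409 with 1 library left out. The count of members that fell was 0, and it was 1 with DESeq2 size factors, 1 with DESeq2, 3 with voom, 5 with the block, 3 without the replicate 4 libraries, 4 without them and with the block, and 0 to 1 with 1 library left out. The count of members that rose was 0, and it was 1 without the replicate 4 libraries, 3 without them and with the block, and 0 to 1 with 1 library left out. Under hairpin 1, the count of all genes was 0, and it was 16 with DESeq2, 8 with voom, 7 without both replicate 1 libraries, 187 in the model of all 14 libraries, and 0 to 1 with 1 library left out; 1 member rose in the model of all 14 libraries. For the difference between hairpins, the count of all genes was 62, and 27 to 959 with 1 library left out, and 0 to 2 members passed. The block changed no other member's call in set 2. In set 1 the replicate numbers correlated at -0.017 to 0.269, so they were not taken as pairs, and the block left 0 members past the threshold.

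Log2 fold changes that turned sign were mostly small. Under hairpin 2 these were Cyp51 (0.056), Nsdhl (0.023) and Insig1 (0.066) with voom, Hmgcs1 (-0.046) with the block, Cyp51 (0.061), Nsdhl (0.042) and Insig1 (0.075) without the replicate 4 libraries, and 0.062, 0.043 and 0.076 for the same genes when also blocked; relative to the chromosome median Hmgcs1 was at -0.19. Under hairpin 1 these were Fdft1 (0.030), Sqle (0.045), Scap (0.010) and Npc1 (-0.20) with voom, and Idi1 (-0.24), Scap (0.0074) and Npc1 (-0.18) without both replicate 1 libraries; relative to the chromosome median Idi1 (-0.020) and Stard4 (-0.12). With 1 library left out, values under hairpin 2 ran from -0.073 to 0.071 for Cyp51, -0.071 to 0.012 for Ebp, -0.086 to 0.19 for Hmgcs1, -0.041 to 0.059 for Insig1, -0.015 to 0.033 for Mbtps1, -0.0074 to 0.15 for Npc1 and -0.089 to 0.017 for Nsdhl. Under hairpin 1 they ran from -0.18 to 0.16 for Cyp51, -0.50 to 0.032 for Fdft1, -0.090 to 0.70 for Idi1, -0.54 to 0.26 for Insig1, -0.32 to 0.22 for Msmo1, -0.32 to 0.034 for Mvk, -0.29 to 1.34 for Npc1, -0.14 to 0.063 for Nsdhl, -0.28 to 0.13 for Sc5d, -0.34 to 0.056 for Scap, -0.25 to 0.11 for Sqle, -0.32 to 0.11 for Srebf2, -0.093 to 0.17 for Stard4 and -0.35 to 0.020 for Tm7sf2. The cause was not tested. The spread of set 1 and 1 library of set 2 limit what these counts can resolve.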
